A study of Mus musculus with 38 samples.

Results

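BV2 cells kept below 0.1% oxygen were compared with BV2 cells kept at 21% oxygen, both in the presence of dimethyl sulfoxide (DMSO), the solvent used as vehicle control in a drug experiment. The comparison has 4 of the 38 RNA-seq libraries of the series, 2 in normoxia and 2 in hypoxia, chosen by their labelled cell line, vehicle and oxygen level and not by any measured value. BV2 is an immortalised mouse microglial line, made by infecting newborn microglia with a retrovirus that carries v-raf and v-myc, so these cells are 1 transformed line and not microglia taken from brain. The cells were seeded in medium with 2% serum and, after a further day, were given DMSO and held at the stated oxygen level for 16 h. They were fixed on ice with glyoxal before RNA was isolated, and libraries were made from poly(A) RNA with a strand-marking kit. The same table holds 2 hypoxic BV2 libraries with 10 nM panobinostat, an inhibitor of histone deacetylases. They were added to the fit for the estimate of the spread between replicates. They thereby also entered the filter on low counts and the scaling of library totals. Untreated BV2 monocultures of another experiment (2 libraries at each oxygen level, 16 h) served for comparison. So did primary macrophages grown from bone marrow (BMDM) with DMSO, in medium with 10% serum, again with 2 libraries at each oxygen level. The labels number the libraries of a group as separate samples but do not say of this experiment that they came from separate cultures, so p-values measure the spread between these libraries.

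Cells read oxygen through prolyl hydroxylases of the EGLN family, which use oxygen and 2-oxoglutarate to mark hypoxia-inducible factor (HIF) alpha subunits for destruction by the VHL ubiquitin ligase. When oxygen is short the alpha subunits last, pair with ARNT and bind the core sequence RCGTG in promoters and enhancers of genes for glucose uptake, glycolysis, mitophagy and vessel growth, and of EGLN genes themselves. Very low oxygen also blocks oxidative protein folding and activates the unfolded protein response and the integrated stress response, in which ATF4 and CHOP drive transcription. Microglia are the resident macrophages of the brain, and in tumours and ischaemic tissue they meet low oxygen while they carry out phagocytosis, antigen presentation and interferon signalling.

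Total gene counts were 12848411 and 13925587 in the normoxia libraries and 14356485 and 13294767 in the hypoxia libraries. Levels are given as CPM, that is, counts brought to a common library total with TMM scaling, and 3 counts make 0.209 to 0.2335 CPM of the unscaled totals. The first principal component held 79.8% of the variance and separated the oxygen levels, with scores of -53.2 and -71.4 in normoxia and 78.0 and 46.5 in hypoxia. All 15 general microglia and macrophage markers passed the filter on low counts, with summed levels of 6185 and 4481 CPM in normoxia and 6067 and 4860 CPM in hypoxia, and of them Adgre1 and Fcgr1 fell. Of the 12 markers of homeostatic microglia, Sall1 and Siglech had no count in any library, while Tmem119 and P2ry12 stayed below 10 CPM, and the sum of the 12 was 102 to 199 CPM. Markers of T, B and NK cells summed to at most 0.157 CPM and those of neutrophils and mast cells to at most 0.223 CPM. Of 14 glial and neural markers, Olig1, Sox2, Aqp4 and Fabp7 had no count, 4 passed the filter and the sum was 4.47 and 5.99 CPM in normoxia and 8.80 and 11.2 CPM in hypoxia, of which Mbp, the single called marker, made up 2.38, 2.85, 6.21 and 7.70 CPM. The 10 endothelial and fibroblast markers summed to 15.6 to 26.1 CPM, and none of the 6 that passed the filter was called. Normoxia library 1 stood apart from normoxia library 2 in several gene groups: mitochondrially encoded transcripts took 1.38% of its counts against 0.547%, and the median level of interferon-stimulated genes was 4.62 against 3.33 on the log2 CPM scale. The hypoxia libraries differed from each other in cell-cycle genes, the median of the mitosis list being 3.94 in library 1 and 5.06 in library 2.

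Hypoxia changed a large share of the measured transcriptome, with more genes falling than rising but the largest changes upward. Of 13294 genes tested, 4980 (37.5%) passed the threshold of an edgeR adjusted p under 0.05, 2291 higher (17.2%) and 2689 lower (20.2%) in hypoxia, and the median log2 fold change of all tested genes was -0.03. At least 4-fold changes were found in 600 called genes that rose (4.51%) and 406 that fell (3.05%), and at least 8-fold changes in 258 (1.94%) and 59 (0.444%). Without hypoxia library 1 the number called was 2920, of which 1405 were higher and 1515 lower, and 2827 of the 4980 genes were called again. When libraries of the same number were treated as pairs (a replicate block), 6511 genes (49%) were called, 3008 higher (22.6%) and 3503 lower (26.4%), 4977 of them among the 4980. DESeq2 called 4966 (37.4%). Each fit without 1 library called fewer genes than the full fit, so counts of list members from those fits do not compare with the full-fit shares. In the plot of gene lists, the 25 lists are set against these background shares.

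**Figure D1:**
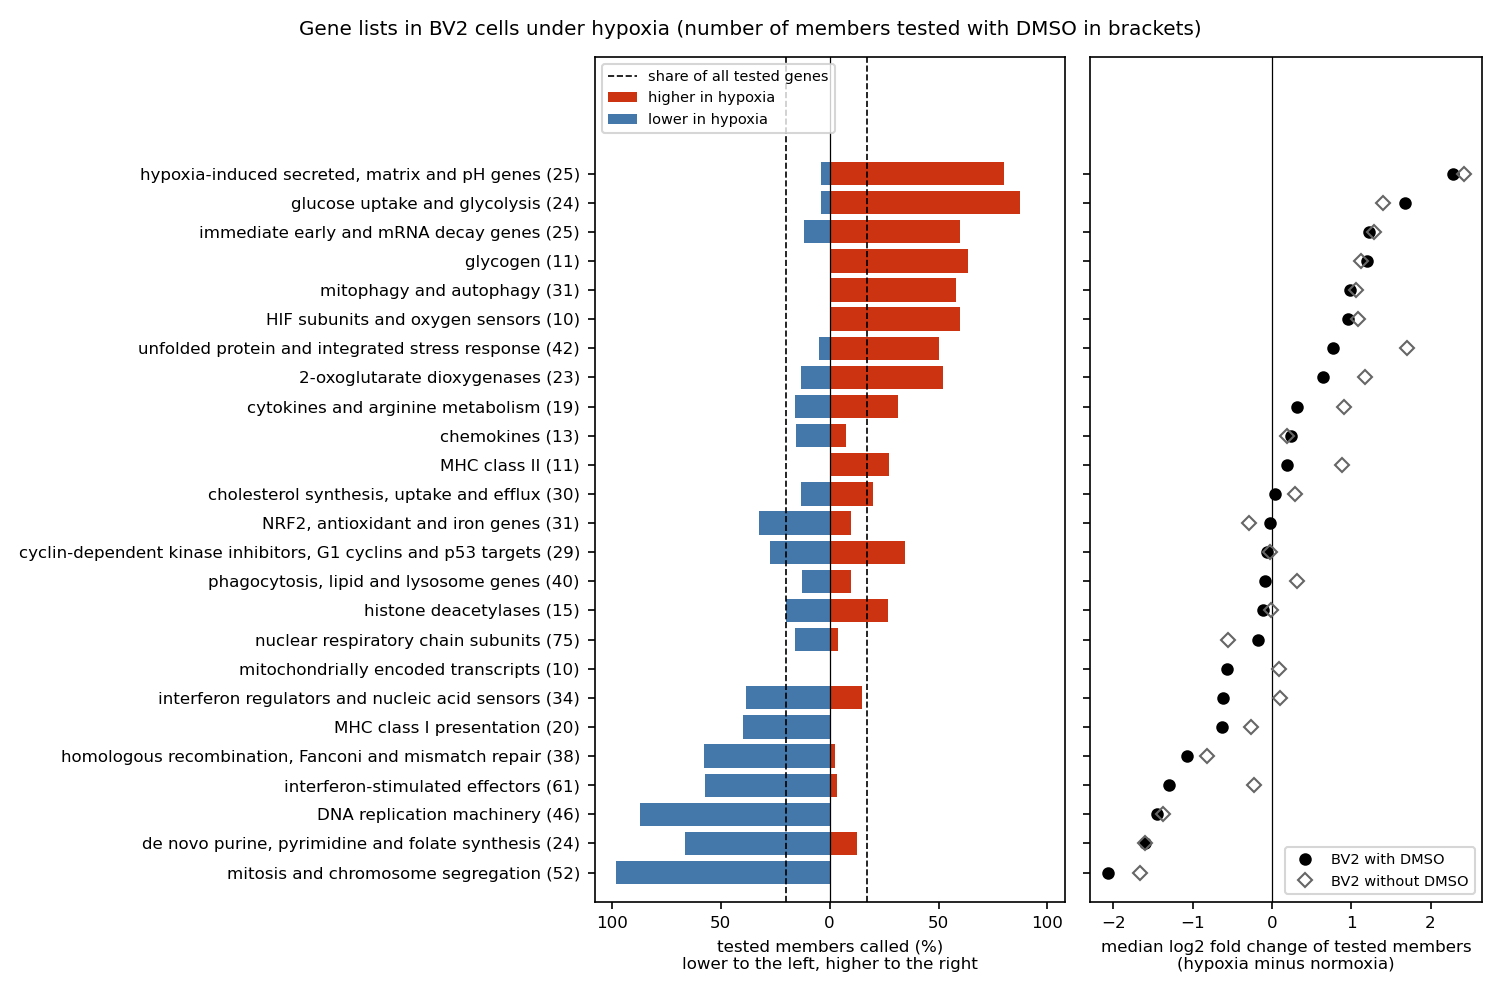
Left, the percentage of each list's tested members called higher (right of 0) or lower (left of 0) in hypoxia in BV2 cells with DMSO, with dashed lines at the shares of all tested genes, 17.2% higher and 20.2% lower. Right, the median log2 fold change of each list in BV2 cells with DMSO (filled circles) and without it (open diamonds, another experiment); the hypoxia-induced secreted, matrix and pH list had the highest median with DMSO (2.28) and the mitosis list the lowest (-2.07).

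Among well-measured genes the highest rise was that of Selenbp1 (ENSMUSG00000068874), a selenium-binding protein with methanethiol oxidase activity. It had 11.8 and 11.9 CPM in normoxia and 837 and 1179.9 CPM in hypoxia. Selenbp1 rose by 6.41 on the log2 scale (SE 0.33, edgeR adjusted p 1.77e-05). The groups lay far apart, although 29.9% of the 75-base words of its transcripts also occur in Selenbp2 and other genes, which makes the assignment of its reads uncertain. Ankrd37 (ENSMUSG00000050914), an ankyrin-repeat gene induced by HIF, had 4.69 and 8.42 CPM in normoxia and 227 and 255 CPM in hypoxia. Ankrd37 rose by 5.20 on the log2 scale (SE 0.34, edgeR adjusted p 2.94e-05). Rora (ENSMUSG00000032238), a nuclear receptor of the circadian clock, had 3.95 and 4.66 CPM in normoxia and 148 and 101 CPM in hypoxia. Rora rose by 4.84 on the log2 scale (SE 0.27, edgeR adjusted p 1.95e-05). Ndrg1 (ENSMUSG00000005125), a stress-responsive gene of the NDRG family, already stood at 149 and 132 CPM in normoxia and reached 2694 and 2157 CPM in hypoxia. Ndrg1 rose by 4.11 on the log2 scale (SE 0.28, edgeR adjusted p 4.15e-05). Ddit4 (ENSMUSG00000020108), an inhibitor of mTORC1 signalling also known as REDD1, had 15.3 and 16.6 CPM in normoxia and 264 and 294 CPM in hypoxia. Ddit4 rose by 4.13 on the log2 scale (SE 0.23, edgeR adjusted p 1.95e-05). The rule for these genes required that the libraries of the 2 groups did not overlap. Such separation held for 4979 of the 4980 called genes and for 9222 of 13294 tested genes, so it adds nothing to a call. The other members of the 8 highest rises, Egln3, Ppp1r3b and Bnip3, belong to the lists described next, and the 8 largest falls were of Car12, Aspm, Plk1, Dctd, Hmmr, Tfrc, Gart and Ccnb1.

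**Figure D2:**
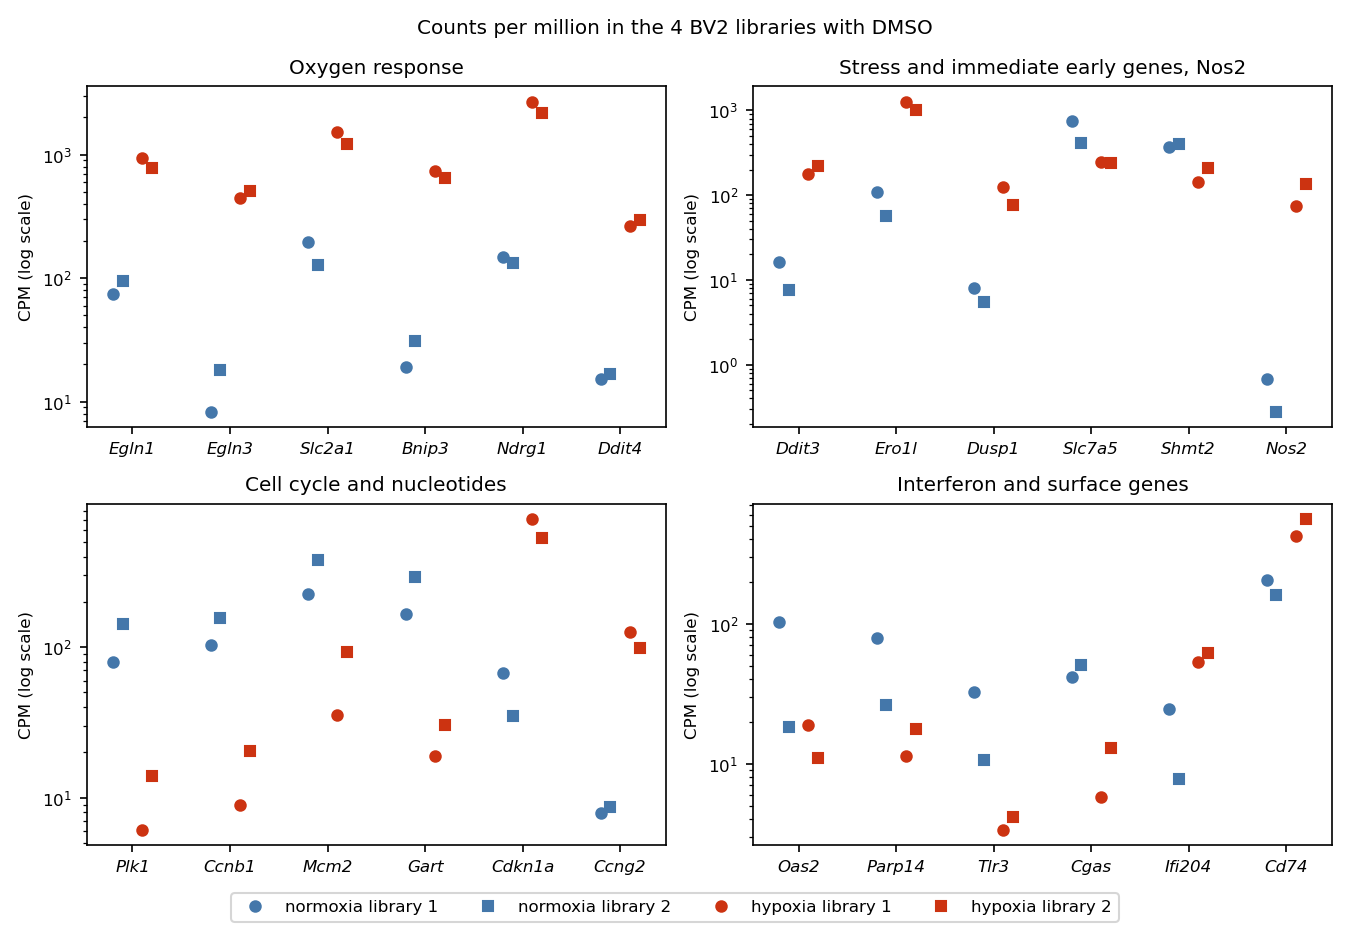
CPM on a log axis for 24 genes in each of the 4 BV2 libraries with DMSO (blue, normoxia; red, hypoxia; circles, library 1; squares, library 2). Egln3 goes from 8.27 and 17.9 CPM to 443 and 505 CPM, Plk1 from 80.1 and 142 CPM to 6.13 and 13.9 CPM, and in Oas2 normoxia library 1 (102 CPM) stands above the other 3 libraries.

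Of the HIF subunits and oxygen sensors, 6 of 10 tested members rose and none fell, against 17.2% and 20.2% of all genes, and the list's median log2 fold change was 0.96. The alpha subunit gene Hif1a itself had 161 and 158 CPM in normoxia and 171 and 153 CPM in hypoxia and did not pass the threshold (log2 change 0.02 with SE 0.20, edgeR adjusted p 0.944), and its libraries overlapped. Epas1, which encodes HIF-2 alpha, had 24.9 and 15.9 CPM in normoxia and 36.3 and 33.4 CPM in hypoxia. Epas1 rose by 0.78 on the log2 scale (SE 0.25, edgeR adjusted p 0.0337). The rising feedback arm was larger: the hydroxylase gene Egln3 (ENSMUSG00000035105) had 8.27 and 17.9 CPM in normoxia and 443 and 505 CPM in hypoxia. Egln3 rose by 5.18 on the log2 scale (SE 0.38, edgeR adjusted p 5.94e-05). Egln1 had 74.0 and 95.2 CPM in normoxia and 934 and 785 CPM in hypoxia. Egln1 rose by 3.34 on the log2 scale (SE 0.25, edgeR adjusted p 6.10e-05). Egln2, the family member that HIF is not known to induce, had 43.6 and 52.8 CPM in normoxia and 46.0 and 39.5 CPM in hypoxia, a log2 fold change of -0.17 that did not pass the threshold (edgeR adjusted p 0.551). Vhl rose by 1.61 and Arnt by 1.06 on the log2 scale (edgeR adjusted p 5.99e-04 and 0.00337). Epas1, Egln2, Vhl and Arnt fall outside the rule for named genes and were chosen after their values were seen.

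Glucose uptake and glycolysis rose almost as a whole pathway: 21 of 24 tested members rose and 1 fell. Of all genes 17.2% rose and 20.2% fell, and the list's median log2 fold change was 1.68. The glucose transporter gene Slc2a1 had 195 and 128 CPM in normoxia and 1513 and 1217 CPM in hypoxia. Slc2a1 rose by 3.08 on the log2 scale (SE 0.29, edgeR adjusted p 1.30e-04). Aldoc, an aldolase, had 78.6 and 83.2 CPM in normoxia and 537 and 603 CPM in hypoxia. Aldoc rose by 2.82 on the log2 scale (SE 0.22, edgeR adjusted p 6.79e-05). Ldha, which turns pyruvate into lactate, had 699.6 and 1133 CPM in normoxia and 2469 and 2597 CPM in hypoxia. Ldha rose by 1.47 on the log2 scale (SE 0.29, edgeR adjusted p 0.00375). The 2 members that did not pass were Pfkfb3 and Pfkfb4, bifunctional regulators of fructose 2,6-bisphosphate that are often induced by hypoxia elsewhere; their log2 fold changes were -0.09 and -0.23 (edgeR adjusted p 0.785 and 0.446). The single fall was of Slc16a1, the lactate transporter MCT1, from 553 and 418 CPM to 73.4 and 120.4 CPM. Slc16a1 fell by 2.33 on the log2 scale (SE 0.28, edgeR adjusted p 3.88e-04). Slc16a3, the lactate exporter MCT4, moved the other way with 524 and 469 CPM in normoxia and 1132 and 1078 CPM in hypoxia. Slc16a3 rose by 1.15 on the log2 scale (SE 0.22, edgeR adjusted p 0.00334). It was named after its values were seen.

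The promoter window of Slc2a1 is shown because it is the glycolysis gene with the largest rise that holds the HIF core motif. Windows come from RefSeq (GRCm38.p6) and run from 250 bases before to 50 bases after an annotated gene start; 9619 of 13293 tested symbols had at least 1. The motif ACGTG, read on either strand (CACGTG matches on both), is in capitals in the window at chr4:119108495-119108794, plus strand, printed 5′ to 3′ on the gene's strand:
Slc2a1: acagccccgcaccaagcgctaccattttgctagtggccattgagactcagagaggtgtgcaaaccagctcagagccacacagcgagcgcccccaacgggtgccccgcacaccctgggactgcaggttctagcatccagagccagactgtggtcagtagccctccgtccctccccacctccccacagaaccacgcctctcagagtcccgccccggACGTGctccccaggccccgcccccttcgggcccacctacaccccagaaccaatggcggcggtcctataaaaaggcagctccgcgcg
ACGTG was found in a window of 16 of 24 glycolysis genes (66.7%). In the hypoxia-induced secreted, matrix and pH list 14 of 19 genes had it (73.7%). Among genes with a window the share was 29.8% of those tested and 21.8% of all 27025. The related core GCGTG was more widespread, in 56.3% of tested genes with a window and 35.2% of all genes with a window. It was found for 62.5% of the glycolysis genes. A match is a description of the letters in the window and not a binding site.

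Genes of glycogen handling rose in 7 of 11 members with none falling (1 fell with the replicate block). The shares of all genes were 17.2% higher and 20.2% lower, and the list's median log2 fold change was 1.2. Ppp1r3b, the subunit that brings protein phosphatase 1 to glycogen, had 3.35 and 3.90 CPM in normoxia and 124 and 127 CPM in hypoxia (log2 change 5.11 with SE 0.23, edgeR adjusted p 1.14e-05), and the 2 libraries of each group lay close together. Gys1, glycogen synthase, had 51.2 and 52.1 CPM in normoxia and 717 and 674 CPM in hypoxia. Gys1 rose by 3.75 on the log2 scale (SE 0.23, edgeR adjusted p 2.54e-05). Mitophagy and autophagy genes rose in 18 of 31 members with none falling, against the same shares of all genes, at a median of 0.99. The mitophagy receptor gene Bnip3 (ENSMUSG00000078566) had 18.9 and 30.7 CPM in normoxia and 744 and 648 CPM in hypoxia. Bnip3 rose by 4.81 on the log2 scale (SE 0.30, edgeR adjusted p 2.54e-05). Its paralogue Bnip3l had 59.0 and 73.0 CPM in normoxia and 495 and 494 CPM in hypoxia. Bnip3l rose by 2.91 on the log2 scale (SE 0.22, edgeR adjusted p 6.32e-05). In Ppp1r3b, Gys1, Bnip3 and Bnip3l the replicates lay much nearer to each other than to the other oxygen level.

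The hypoxia-induced secreted, matrix and pH genes had 25 tested members, of which 20 rose and 1 fell, against 17.2% and 20.2% of all genes. Their median log2 fold change was 2.28. The other 10 of the list, among them Adm, Angptl4, Car9 and Tgfa, were too low to be tested in this line. Vegfa, the angiogenic growth factor, had 130.2 and 61.3 CPM in normoxia and 504 and 338 CPM in hypoxia. Vegfa rose by 2.14 on the log2 scale (SE 0.35, edgeR adjusted p 0.00157). Kdm3a and Anxa2 rose by 2.63 and 3.48 on the log2 scale and were named after their values were seen. Car12 (ENSMUSG00000032373), a membrane carbonic anhydrase that is induced by hypoxia in many tumour cells, fell from 77.3 and 69.3 CPM to 3.07 and 9.79 CPM (log2 change -3.50 with SE 0.42, edgeR adjusted p 4.26e-04), and was the largest fall among well-measured genes. The remaining members did not pass, among them Stc2, Lox and P4ha2. Of the other enzymes that use 2-oxoglutarate and oxygen, 12 of 23 tested rose and 3 fell, against 17.2% and 20.2% of all genes. The list's median was 0.65. This list also holds P4hb, a subunit of prolyl 4-hydroxylases that is not itself such an enzyme. The histone demethylase gene Kdm6b had 13.8 and 16.3 CPM in normoxia and 88.9 and 120.4 CPM in hypoxia. Kdm6b rose by 2.80 on the log2 scale (SE 0.26, edgeR adjusted p 1.18e-04). Kdm4b, another histone demethylase gene, had 32.3 and 39.1 CPM in normoxia and 241 and 205 CPM in hypoxia. Kdm4b rose by 2.64 on the log2 scale (SE 0.22, edgeR adjusted p 8.03e-05). The ribosomal oxygenase gene Riox2 moved the other way, with 32.0 and 42.1 CPM in normoxia and 8.57 and 8.82 CPM in hypoxia. Riox2 fell by 2.09 on the log2 scale (SE 0.24, edgeR adjusted p 3.41e-04). So did the JmjC-domain gene Kdm8, with 15.7 and 19.7 CPM in normoxia and 6.13 and 5.16 CPM in hypoxia. Kdm8 fell by 1.65 on the log2 scale (SE 0.30, edgeR adjusted p 0.00248).

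Respiratory chain genes had a median nearer to 0 than these groups. In the full fit, 3 of 75 tested nuclear-encoded subunits rose and 12 fell, below the background shares of 17.2% and 20.2%. The median log2 fold change was -0.17 (-0.30 to 0.03 when 1 library was left out). With the replicate block 20 fell, close to the blocked background of 26.4%. Without normoxia library 1 the falls were not below the background of that fit. The median was -0.30 without normoxia library 1, 0.03 without normoxia library 2 and -0.09 without hypoxia library 1. Cycs, cytochrome c, had 100.4 and 138 CPM in normoxia and 31.8 and 39.7 CPM in hypoxia. Cycs fell by 1.74 on the log2 scale (SE 0.23, edgeR adjusted p 6.40e-04). Ndufa5, an accessory subunit of complex I, had 28.2 and 37.7 CPM in normoxia and 10.6 and 17.0 CPM in hypoxia. Ndufa5 fell by 1.25 on the log2 scale (SE 0.28, edgeR adjusted p 0.00674). Against this trend the complex I subunit gene Ndufv3 had 46.9 and 61.1 CPM in normoxia and 196 and 234 CPM in hypoxia. Ndufv3 rose by 1.99 on the log2 scale (SE 0.22, edgeR adjusted p 2.91e-04). Ndufa6, with 62.8 and 83.1 CPM in normoxia and 111 and 109 CPM in hypoxia, passed narrowly (log2 change 0.59 with SE 0.21, edgeR adjusted p 0.0491) and lost the call without any library except normoxia library 2, with log2 fold changes of 0.43 to 0.60 in those fits. The third riser, Cox7a1, had 0.894 and 1.11 CPM in normoxia and 3.14 and 3.66 CPM in hypoxia. Cox7a1 rose by 1.75 on the log2 scale (SE 0.41, edgeR adjusted p 0.00872). Of the 10 tested transcripts encoded by the mitochondrial genome none passed in either direction by edgeR, and 4 fell with the replicate block; their median log2 fold change of -0.57 became 0.09 without normoxia library 1, and 3 fell without normoxia library 2 or without hypoxia library 1. The share of counts from this genome was 1.38% and 0.547% in normoxia and 0.761% and 0.490% in hypoxia, and the libraries of the groups overlapped.

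Stress response genes rose in 21 of 42 tested members and fell in 2, against 17.2% and 20.2% of all genes. Their median log2 fold change was 0.77 (0.51 to 1.18 when 1 library was left out). The lowest of these medians, 0.51, was that without hypoxia library 1. Ddit3 (ENSMUSG00000025408), which encodes the transcription factor CHOP, had 16.5 and 7.59 CPM in normoxia and 177 and 219 CPM in hypoxia. Ddit3 rose by 4.04 on the log2 scale (SE 0.35, edgeR adjusted p 9.61e-05). Ero1l, an oxidase of protein folding in the endoplasmic reticulum, had 109 and 57.0 CPM in normoxia and 1272 and 1018 CPM in hypoxia. Ero1l rose by 3.78 on the log2 scale (SE 0.35, edgeR adjusted p 1.18e-04). Trib3, a pseudokinase induced by ATF4 and CHOP, had 84.0 and 22.6 CPM in normoxia and 698 and 596 CPM in hypoxia. Trib3 rose by 3.60 on the log2 scale (SE 0.50, edgeR adjusted p 7.68e-04). Its normoxia libraries lay further apart than its hypoxia libraries, and it is named here for its promoter window. Not all ATF4 targets followed: Slc7a5, a large neutral amino acid transporter, had 749.8 and 416 CPM in normoxia and 248 and 237 CPM in hypoxia. Slc7a5 fell by 1.27 on the log2 scale (SE 0.28, edgeR adjusted p 0.00634). Shmt2, the mitochondrial serine hydroxymethyltransferase, had 368 and 404 CPM in normoxia and 143 and 210.2 CPM in hypoxia. Shmt2 fell by 1.13 on the log2 scale (SE 0.25, edgeR adjusted p 0.00618). Shmt2 lost its call without hypoxia library 1 (log2 fold change -0.88, edgeR adjusted p 0.0594). The amino acid synthesis genes Asns, Psat1 and Phgdh did not pass, with log2 differences of 0.36, -0.01 and -0.12 (edgeR adjusted p 0.234, 0.972 and 0.7), and were named after their values were seen. Slc7a11, the cystine transporter, had 285 and 30.9 CPM in normoxia and 188 and 154 CPM in hypoxia, so the normoxia libraries lay on either side of both hypoxia libraries.

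Trib3 is shown as the riser of the stress list with the largest change whose window holds TGATGNAA, the core of the element bound by CEBP-ATF dimers. The match, in capitals, reads TTNCATCA here because it lies on the opposite strand of the window at chr2:152344011-152344310, minus strand:
Trib3: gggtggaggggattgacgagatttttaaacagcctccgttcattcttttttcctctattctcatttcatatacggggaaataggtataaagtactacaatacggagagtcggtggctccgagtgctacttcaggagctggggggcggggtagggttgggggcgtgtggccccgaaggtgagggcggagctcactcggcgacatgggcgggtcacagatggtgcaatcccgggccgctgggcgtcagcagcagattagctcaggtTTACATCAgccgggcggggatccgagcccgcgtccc
TGATGNAA on either strand was found for 7 of 36 stress response genes with a window (19.4%). Among genes with a window the share was 2.75% of those tested and 4.51% of all. Ddit3 has a window without these letters, and Ero1l was not among the windows.

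Immediate early and mRNA decay genes, which respond to many kinds of stress, rose in 15 of 25 tested members and fell in 3. The shares of all genes were 17.2% higher and 20.2% lower, and the list's median log2 fold change was 1.22. Dusp1, a phosphatase of MAP kinases, had 8.04 and 5.50 CPM in normoxia and 125 and 77.6 CPM in hypoxia. Dusp1 rose by 3.90 on the log2 scale (SE 0.31, edgeR adjusted p 7.06e-05). Ier3 had 26.6 and 19.0 CPM in normoxia and 262 and 361 CPM in hypoxia. Ier3 rose by 3.77 on the log2 scale (SE 0.29, edgeR adjusted p 6.32e-05). In Dusp1 and Ier3 each hypoxia library was far above both normoxia libraries. Fosl1, an AP-1 subunit, went the other way with 66.0 and 29.6 CPM in normoxia and 18.8 and 10.7 CPM in hypoxia. Fosl1 fell by 1.70 on the log2 scale (SE 0.40, edgeR adjusted p 0.00813). Its call was lost without normoxia library 1 (log2 fold change -0.98, edgeR adjusted p 0.0737). Zfp36l2, an mRNA decay factor, had 215 and 261 CPM in normoxia and 146 and 149 CPM in hypoxia. Zfp36l2 fell by 0.69 on the log2 scale (SE 0.20, edgeR adjusted p 0.024). It lost its call without normoxia library 2 or either hypoxia library (edgeR adjusted p 0.0777, 0.13 and 0.0844).

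Genes of cell division had the lowest median of the 25 lists. Of 52 mitosis and chromosome segregation genes 51 fell and none rose, against 20.2% and 17.2% of all genes. Their median log2 fold change was -2.07. Bub1 was the exception (57.2 and 72.7 CPM in normoxia and 34.0 and 63.3 CPM in hypoxia, log2 fold change -0.42, edgeR adjusted p 0.279). Plk1 (ENSMUSG00000030867), a kinase of mitotic entry and spindle assembly, had 80.1 and 142 CPM in normoxia and 6.13 and 13.9 CPM in hypoxia. Plk1 fell by 3.47 on the log2 scale (SE 0.40, edgeR adjusted p 3.23e-04). Ccnb1 (ENSMUSG00000041431), cyclin B1, had 103 and 155 CPM in normoxia and 8.88 and 20.3 CPM in hypoxia. Ccnb1 fell by 3.15 on the log2 scale (SE 0.40, edgeR adjusted p 5.31e-04). The spindle gene Aspm, outside the list, had 117 and 113 CPM in normoxia and 6.45 and 13.8 CPM in hypoxia. Aspm fell by 3.50 on the log2 scale (SE 0.36, edgeR adjusted p 2.12e-04). Hmmr, also a spindle gene outside the list, had 163 and 159.8 CPM in normoxia and 9.90 and 23.5 CPM in hypoxia. Hmmr fell by 3.27 on the log2 scale (SE 0.37, edgeR adjusted p 2.91e-04). In all of these hypoxia library 1 was the lower of the 2 hypoxia libraries. In bulk RNA, fewer dividing cells and less of these transcripts per dividing cell cannot be told apart.

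The window of Plk1 is shown for the cell-cycle homology region motif TTTGAA, through which the DREAM complex represses late cell-cycle genes. It lies at chr7:122159185-122159484, plus strand, with the motif in capitals:
Plk1: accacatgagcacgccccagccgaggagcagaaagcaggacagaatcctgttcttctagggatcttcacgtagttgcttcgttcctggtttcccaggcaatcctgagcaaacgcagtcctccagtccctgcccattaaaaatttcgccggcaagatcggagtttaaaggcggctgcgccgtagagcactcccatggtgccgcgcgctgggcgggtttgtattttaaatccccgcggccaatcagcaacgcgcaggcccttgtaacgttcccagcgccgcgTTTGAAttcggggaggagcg
On either strand (TTCAAA on the other), TTTGAA was found for 32 of 43 mitosis genes with a window (74.4%). Among genes with a window the share was 14.5% of those tested and 20.2% of all.

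DNA replication genes fell in 40 of 46 members and none rose, against 20.2% and 17.2% of all genes. Their median log2 fold change was -1.45 (-2.18 to -1.01 when 1 library was left out). Without normoxia library 2 the median was -1.18. Mcm2, a subunit of the replicative helicase, had 225 and 381 CPM in normoxia and 35.6 and 92.7 CPM in hypoxia. Mcm2 fell by 2.24 on the log2 scale (SE 0.42, edgeR adjusted p 0.00307). Orc1, of the origin recognition complex, had 14.7 and 25.8 CPM in normoxia and 1.97 and 5.68 CPM in hypoxia. Orc1 fell by 2.40 on the log2 scale (SE 0.56, edgeR adjusted p 0.00826). It lost its call without normoxia library 2 (edgeR adjusted p 0.0687). In Mcm2 and Orc1 hypoxia library 1 was lower than library 2, as it was in the mitotic genes. Pcna, the sliding clamp, did not pass (196 and 273 CPM in normoxia and 147 and 198 CPM in hypoxia, log2 fold change -0.44, edgeR adjusted p 0.171), and was named after its values were seen. Genes of homologous recombination, the Fanconi pathway and mismatch repair fell in 22 of 38 members and rose in 1. The background shares were the same, and the median was -1.07. The median was -0.92 without normoxia library 2 and -0.76 without hypoxia library 1. Fanca, of the Fanconi core complex, had 92.3 and 82.6 CPM in normoxia and 10.7 and 17.5 CPM in hypoxia. Fanca fell by 2.63 on the log2 scale (SE 0.27, edgeR adjusted p 2.03e-04). Xrcc2, a gene of homologous recombination, had 18.5 and 17.4 CPM in normoxia and 2.67 and 6.72 CPM in hypoxia. Xrcc2 fell by 1.93 on the log2 scale (SE 0.42, edgeR adjusted p 0.00622). The member that rose was the mismatch repair gene Msh6, with 118 and 157 CPM in normoxia and 273 and 236 CPM in hypoxia. Msh6 rose by 0.89 on the log2 scale (SE 0.22, edgeR adjusted p 0.0101). Its call was lost without hypoxia library 1 (log2 fold change 0.78, edgeR adjusted p 0.0702).

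Genes of nucleotide synthesis fell as well. Of 24 genes of de novo purine, pyrimidine and folate synthesis 16 fell and 3 rose, against 20.2% and 17.2% of all genes. Their median log2 fold change was -1.59. Gart (ENSMUSG00000022962), a trifunctional enzyme of purine synthesis, had 167 and 292 CPM in normoxia and 18.9 and 30.3 CPM in hypoxia. Gart fell by 3.22 on the log2 scale (SE 0.35, edgeR adjusted p 2.49e-04). Pfas, another enzyme of the pathway, had 155 and 178 CPM in normoxia and 19.7 and 35.0 CPM in hypoxia. Pfas fell by 2.6 on the log2 scale (SE 0.29, edgeR adjusted p 3.07e-04). Dctd (ENSMUSG00000031562), the deaminase that makes dUMP and was outside the list, had 68.1 and 80.4 CPM in normoxia and 2.91 and 11.3 CPM in hypoxia. Dctd fell by 3.38 on the log2 scale (SE 0.53, edgeR adjusted p 0.00127). Hypoxia library 1 was again the lower of the hypoxia libraries in Gart, Pfas and Dctd. The genes that rose were Mthfd1l, Impdh1 and Adssl1. Mthfd1l, a mitochondrial enzyme that yields formate, had 90.0 and 106 CPM in normoxia and 343 and 311 CPM in hypoxia. Mthfd1l rose by 1.74 on the log2 scale (SE 0.20, edgeR adjusted p 3.58e-04). Adssl1 had 145 and 152 CPM in normoxia and 255 and 238 CPM in hypoxia and lost its call without hypoxia library 1 (edgeR adjusted p 0.0151 and 0.102 without it), when 1 member remained called higher.

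Regulators of the cell cycle moved in both directions: of 29 cyclin-dependent kinase inhibitors, G1 cyclins and p53 targets 10 rose and 8 fell (median -0.06), with background shares of 17.2% and 20.2%, and without hypoxia library 1, 7 rose and 4 fell. Cdkn1a, the inhibitor p21, had 67.1 and 34.7 CPM in normoxia and 706 and 533 CPM in hypoxia. Cdkn1a rose by 3.60 on the log2 scale (SE 0.34, edgeR adjusted p 1.30e-04). Ccng2, a cyclin linked to arrest, had 7.90 and 8.63 CPM in normoxia and 127 and 98.5 CPM in hypoxia. Ccng2 rose by 3.77 on the log2 scale (SE 0.24, edgeR adjusted p 2.54e-05). Cyclin E1 and cyclin D1, which drive entry into S phase, fell: Ccne1 had 44.4 and 45.0 CPM in normoxia and 5.11 and 8.44 CPM in hypoxia. Ccne1 fell by 2.72 on the log2 scale (SE 0.28, edgeR adjusted p 1.91e-04). Ccnd1 had 128 and 138 CPM in normoxia and 27.3 and 36.8 CPM in hypoxia. Ccnd1 fell by 2.06 on the log2 scale (SE 0.22, edgeR adjusted p 2.12e-04). The number of members that fell was 5 without normoxia library 2.

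Interferon-stimulated effector genes fell in 35 of 61 tested members and rose in 2, against 20.2% and 17.2% of all genes. Their median log2 fold change was -1.30, and how far they fell depended on normoxia library 1. The median level of the list was 4.62 and 3.33 log2 CPM in normoxia libraries 1 and 2 and 2.90 and 2.97 in hypoxia, so that normoxia library 2 lay nearer to the hypoxia libraries than to its replicate. Without normoxia library 1 the list's median log2 fold change was -0.48. It was -1.71 without normoxia library 2 and -1.29 without hypoxia library 1. Oas2, an antiviral oligoadenylate synthetase, had 102 and 18.3 CPM in normoxia and 19.0 and 10.9 CPM in hypoxia. Oas2 fell by 2.01 on the log2 scale (SE 0.62, edgeR adjusted p 0.029). For Oas2, normoxia library 2 lay between the hypoxia libraries; without normoxia library 1 the log2 fold change was -0.26 (edgeR adjusted p 0.614). Parp14, a mono-ADP-ribosyltransferase, had 78.7 and 26.1 CPM in normoxia and 11.4 and 17.6 CPM in hypoxia. Parp14 fell by 1.85 on the log2 scale (SE 0.46, edgeR adjusted p 0.0114). It did not pass without that library (log2 fold change -0.82, edgeR adjusted p 0.122). Ifit1, a sensor of foreign RNA caps, had 7.0 and 1.32 CPM in normoxia and 0.629 and 1.05 CPM in hypoxia. Ifit1 fell by 2.29 on the log2 scale (SE 0.73, edgeR adjusted p 0.0332). It did not pass without normoxia library 1 (-0.62, edgeR adjusted p 0.494) or without hypoxia library 1 (-1.98, 0.115). In other members the groups lay further apart: Slfn9, of the Schlafen family, had 67.5 and 59.1 CPM in normoxia and 12.7 and 25.9 CPM in hypoxia. Slfn9 fell by 1.71 on the log2 scale (SE 0.35, edgeR adjusted p 0.00417). Ly6e, which encodes a membrane protein and was named after its values were seen, had 762 and 578 CPM in normoxia and 198 and 242 CPM in hypoxia. Ly6e fell by 1.61 on the log2 scale (SE 0.24, edgeR adjusted p 0.00104). In Slfn9 and Ly6e both normoxia libraries were well above both hypoxia libraries. Ifi204, a DNA sensor of the PYHIN family, had 24.4 and 7.80 CPM in normoxia and 53.2 and 62.2 CPM in hypoxia. Ifi204 rose by 1.84 on the log2 scale (SE 0.42, edgeR adjusted p 0.00713).

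**Figure D3:**
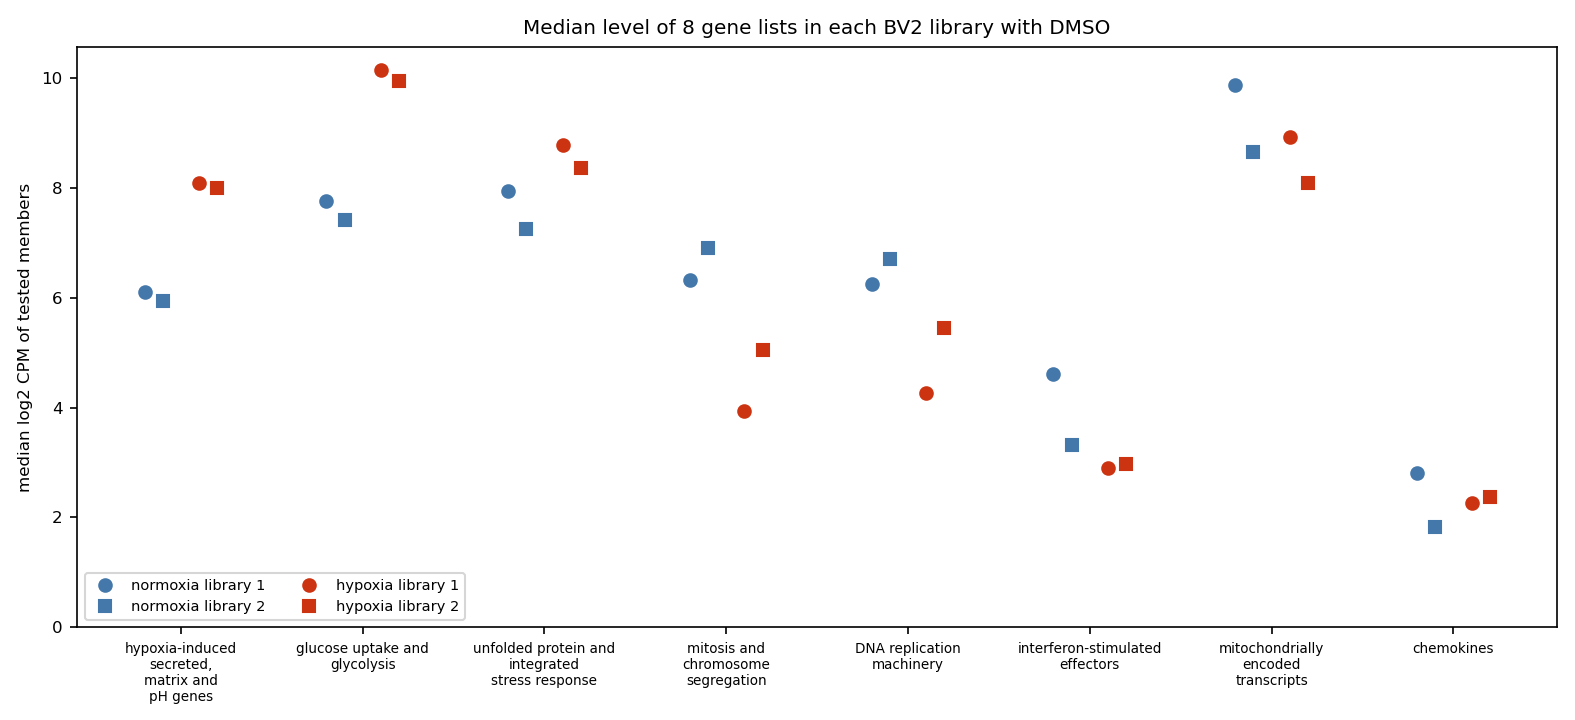
Median log2 CPM over the tested members of 8 gene lists in each BV2 library with DMSO (blue, normoxia; red, hypoxia; circles, library 1; squares, library 2). For interferon-stimulated effectors normoxia library 1 (4.62) lies above normoxia library 2 (3.33) and the hypoxia libraries (2.90 and 2.97), while for glycolysis and mitosis the oxygen levels separate by more than the replicates do.

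The window of Slfn9 is shown for the core of the interferon-stimulated response element (a pair of GAAA runs parted by any 2 bases), since it had the largest fall among called members above a mean log2 CPM of 3 whose window holds the motif; Oas2 and Parp14 were not among the windows. The match is on the opposite strand, so TTTC runs parted by 2 bases are in capitals, of the window at chr11:82991781-82992080, minus strand:
Slfn9: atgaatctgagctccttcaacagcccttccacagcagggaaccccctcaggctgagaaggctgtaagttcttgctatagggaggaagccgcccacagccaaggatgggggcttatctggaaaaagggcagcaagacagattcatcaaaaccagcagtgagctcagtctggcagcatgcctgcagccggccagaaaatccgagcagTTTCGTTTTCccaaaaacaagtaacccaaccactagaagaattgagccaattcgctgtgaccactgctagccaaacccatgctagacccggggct
This core on either strand was found for 25 of 47 interferon-stimulated effectors with a window (53.2%). Among genes with a window the share was 3.71% of those tested and 3.99% of all.

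Upstream of these effectors, 13 of 34 interferon regulators and nucleic acid sensors fell and 5 rose, against background shares of 20.2% and 17.2% (median log2 fold change -0.62). The median was -0.27 without normoxia library 1 and -0.59 without hypoxia library 1. With the 2 oxygen groups alone 7 fell, against 16.6% of all genes in that fit. Cgas, the cytosolic DNA sensor, had 41.3 and 50.5 CPM in normoxia and 5.82 and 13 CPM in hypoxia. Cgas fell by 2.28 on the log2 scale (SE 0.35, edgeR adjusted p 0.00108). Tmem173, the adaptor STING that acts after it, had 114 and 89.7 CPM in normoxia and 47.6 and 51.2 CPM in hypoxia. Tmem173 fell by 1.04 on the log2 scale (SE 0.20, edgeR adjusted p 0.00365). It was named after its values were seen. Tlr3, a receptor of double-stranded RNA, had 32.7 and 10.6 CPM in normoxia and 3.38 and 4.18 CPM in hypoxia. Tlr3 fell by 2.51 on the log2 scale (SE 0.48, edgeR adjusted p 0.00321). Of the members that rose, Irf8, a transcription factor of myeloid cells, had 97.9 and 142 CPM in normoxia and 242 and 251 CPM in hypoxia. Irf8 rose by 1.04 on the log2 scale (SE 0.22, edgeR adjusted p 0.00584). Stat3, a transcription factor of cytokine signalling, had 88.0 and 99.3 CPM in normoxia and 219 and 178 CPM in hypoxia. Stat3 rose by 1.08 on the log2 scale (SE 0.21, edgeR adjusted p 0.00336).

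Genes of class I antigen presentation fell in 8 of 20 members and none rose, against background shares of 20.2% and 17.2% (median log2 fold change -0.63). With the replicate block 10 fell and 1 rose. The median was -0.27 without normoxia library 1 and -0.57 without hypoxia library 1. Erap1, which trims peptides for class I molecules, had 118 and 74.0 CPM in normoxia and 18 and 18.8 CPM in hypoxia. Erap1 fell by 2.38 on the log2 scale (SE 0.26, edgeR adjusted p 2.43e-04). Tap1, a subunit of the peptide transporter, had 132 and 58.3 CPM in normoxia and 28.8 and 35.5 CPM in hypoxia. Tap1 fell by 1.57 on the log2 scale (SE 0.34, edgeR adjusted p 0.00569). The heavy chain gene H2-K1 had 964 and 617 CPM in normoxia and 741 and 678 CPM in hypoxia and did not pass (log2 change -0.16 with SE 0.27, edgeR adjusted p 0.684), its libraries overlapping. With the 2 oxygen groups alone 3 of 7 tested members of the class II list rose and none fell (median 0.44). In that fit 15.3% of all genes rose. In the main fit, whose filter also used the panobinostat libraries, 3 of 11 rose, against 17.2% of all genes, and none fell. Among them Cd74, the invariant chain, had 205 and 161 CPM in normoxia and 425 and 556 CPM in hypoxia. Cd74 rose by 1.42 on the log2 scale (SE 0.24, edgeR adjusted p 0.00187). The others were Rfxank and Rfxap, subunits of the class II promoter factor RFX. Rfxap had 34.8 and 49.4 CPM in normoxia and 77.0 and 81.3 CPM in hypoxia. Rfxap rose by 0.91 on the log2 scale (SE 0.22, edgeR adjusted p 0.00904). Of the class II chains, H2-Aa, H2-Eb1 and H2-Ob had no count in any of the 4 libraries and passed the filter through the panobinostat libraries, and their fitted change of 0 enters the list's median of 0.19 (0.00 to 0.50 when 1 library was left out). Cd274, the checkpoint ligand PD-L1, had 17.3 and 9.12 CPM in normoxia and 21.9 and 10.8 CPM in hypoxia, with no call and overlapping libraries. The log2 difference for Cd274 was 0.31 (SE 0.39, edgeR adjusted p 0.563).

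The inducible nitric oxide synthase gene Nos2 had the widest change of the panel, from 0.670 and 0.278 CPM in normoxia to 74.7 and 137 CPM in hypoxia. Nos2 rose by 7.79 on the log2 scale (SE 0.70, edgeR adjusted p 1.10e-04). Arginase, which competes with it for arginine, was not measurable: Arg1 was at or below 0.223 CPM in all 4 libraries and Arg2 had no count. Asl, which makes arginine, rose (46.1 and 50.7 CPM in normoxia and 106 and 90.4 CPM in hypoxia, log2 change 1.02, edgeR adjusted p 0.00319), and was named after its values were seen. Slc7a2, an arginine transporter, had 47.2 and 43.6 CPM in normoxia and 5.66 and 13.9 CPM in hypoxia. Slc7a2 fell by 2.21 on the log2 scale (SE 0.40, edgeR adjusted p 0.00242). Odc1, the first enzyme of polyamine synthesis, had 295 and 433 CPM in normoxia and 56.8 and 86.2 CPM in hypoxia. Odc1 fell by 2.35 on the log2 scale (SE 0.28, edgeR adjusted p 4.12e-04). So of these arginine-related genes Nos2 and Asl were higher and Slc7a2 and Odc1 lower in both hypoxia libraries. In all, 6 of 19 tested genes of the cytokine and arginine list rose and 3 fell, against 17.2% and 20.2% of all genes. The list's median log2 fold change was 0.31 (-0.07 to 0.87 when 1 library was left out). With the replicate block 9 rose and 5 fell, against 22.6% and 26.4% of all genes, which puts the falls at the background. Il1rn, the interleukin-1 receptor antagonist, had 7.23 and 4.87 CPM in normoxia and 51.5 and 25.1 CPM in hypoxia. Il1rn rose by 2.66 on the log2 scale (SE 0.41, edgeR adjusted p 0.00113). Il15 had 4.32 and 3.34 CPM in normoxia and 21.1 and 17.8 CPM in hypoxia. Il15 rose by 2.34 on the log2 scale (SE 0.27, edgeR adjusted p 3.09e-04). Tnf, the third faller of the list, had 16.9 and 8.35 CPM in normoxia and 1.57 and 4.63 CPM in hypoxia. Tnf fell by 2.02 on the log2 scale (SE 0.50, edgeR adjusted p 0.0111). Il6, Il10 and Il12b were too low to be tested.

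Chemokines were mostly low in these cells, with 13 of 25 tested, 1 higher and 2 lower in hypoxia, against background shares of 17.2% and 20.2%. In the blocked fit 3 were higher and 4 lower, against 22.6% and 26.4%, and no departure from the background is read from so few members. The list's median of 0.24 turned negative without normoxia library 2 (-0.25) and without hypoxia library 1 (-0.61), and was 0.73 without normoxia library 1. The called members were Ccr1, Ccl2 and Ccl24. The receptor gene Ccr1 had 0.447 and 0.278 CPM in normoxia and 6.68 and 2.76 CPM in hypoxia. Ccr1 rose by 3.67 on the log2 scale (SE 0.81, edgeR adjusted p 0.00638). Ccl2, a monocyte attractant, had 9.16 and 5.99 CPM in normoxia and 1.18 and 0.822 CPM in hypoxia. Ccl2 fell by 2.91 on the log2 scale (SE 0.52, edgeR adjusted p 0.00234). Ccl24 stayed below 2 CPM in all 4 libraries. Cxcl10, a T cell attractant kept in the interferon list, had 4.99 and 1.81 CPM in normoxia and 0.550 and 1.2 CPM in hypoxia. Cxcl10 fell by 1.94 on the log2 scale (SE 0.65, edgeR adjusted p 0.0402). It did not pass without normoxia library 1 (edgeR adjusted p 0.317) or without hypoxia library 1 (0.18). The microglial receptor gene P2ry12 had 4.02 and 2.44 CPM in normoxia and 1.02 and 1.34 CPM in hypoxia. P2ry12 fell by 1.44 on the log2 scale (SE 0.46, edgeR adjusted p 0.0338). The microglial marker Tmem119 had 8.42 and 4.8 CPM in normoxia and 2.75 and 1.34 CPM in hypoxia. Tmem119 fell by 1.69 on the log2 scale (SE 0.45, edgeR adjusted p 0.015). At these levels the calls were not stable: P2ry12 and Tmem119 did not pass without normoxia library 1 or without hypoxia library 2, nor P2ry12 without hypoxia library 1, with edgeR adjusted p of 0.179, 0.0731 and 0.184 for P2ry12 and 0.0952 and 0.054 for Tmem119.

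Phagocytosis, lipid and lysosome genes had 4 members higher and 5 lower of 40, against background shares of 17.2% and 20.2%. In the blocked fit 6 were higher and 11 lower, against 22.6% and 26.4%, which puts the falls at the background. The median of -0.09 ranged from -0.34 to 0.41 when 1 library was left out. Without normoxia library 1 the counts were 8 and 2, and without hypoxia library 1, 2 and 3. Lgals3, galectin-3, had 475 and 435 CPM in normoxia and 2577 and 1763 CPM in hypoxia. Lgals3 rose by 2.25 on the log2 scale (SE 0.27, edgeR adjusted p 4.33e-04). Mertk, a receptor for apoptotic cells, had 18.1 and 12.1 CPM in normoxia and 54.2 and 31.4 CPM in hypoxia. Mertk rose by 1.5 on the log2 scale (SE 0.30, edgeR adjusted p 0.00404). The named lipase genes fell: Lpl, lipoprotein lipase, had 3094 and 2035 CPM in normoxia and 1021 and 712 CPM in hypoxia. Lpl fell by 1.57 on the log2 scale (SE 0.35, edgeR adjusted p 0.00676). Lipa, lysosomal acid lipase, had 1068 and 505 CPM in normoxia and 372 and 293 CPM in hypoxia. Lipa fell by 1.24 on the log2 scale (SE 0.34, edgeR adjusted p 0.0178). It lost its call without normoxia library 1 (log2 fold change -0.57, edgeR adjusted p 0.111) or without hypoxia library 2 (-1.08, 0.0567).

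Of 30 cholesterol genes 6 were higher and 4 lower, near the background shares of 17.2% and 20.2% (median 0.04, -0.05 to 0.31 when 1 library was left out), or 8 and 7 when blocked by replicate number; without normoxia library 1, 1 was lower, and without hypoxia library 1, 2. Insig2, which holds SREBP in the endoplasmic reticulum, had 23.4 and 17.1 CPM in normoxia and 64.4 and 53.9 CPM in hypoxia. Insig2 rose by 1.55 on the log2 scale (SE 0.23, edgeR adjusted p 0.0011). Scap, the escort of SREBP, had 185 and 183 CPM in normoxia and 52.7 and 73.1 CPM in hypoxia. Scap fell by 1.55 on the log2 scale (SE 0.22, edgeR adjusted p 8.92e-04). Insig2 and Scap, whose proteins bind each other, thus moved in opposite directions. Lss, lanosterol synthase, had 123 and 100.3 CPM in normoxia and 286 and 343 CPM in hypoxia. Lss rose by 1.49 on the log2 scale (SE 0.22, edgeR adjusted p 8.86e-04). Mylip, a ubiquitin ligase of the LDL receptor, had 26.7 and 21.4 CPM in normoxia and 12.7 and 12.4 CPM in hypoxia. Mylip fell by 0.94 on the log2 scale (SE 0.23, edgeR adjusted p 0.011). It did not pass without normoxia library 1 (edgeR adjusted p 0.0509). Of NRF2, antioxidant and iron genes 3 of 31 rose and 10 fell (median -0.03), against 17.2% and 20.2% of all genes, or 2 and 6 without hypoxia library 1 and 2 and 6 without hypoxia library 2. Hmox1, heme oxygenase 1, had 456 and 263 CPM in normoxia and 2866 and 1629.6 CPM in hypoxia. Hmox1 rose by 2.65 on the log2 scale (SE 0.42, edgeR adjusted p 0.00135). Me1, malic enzyme, had 107 and 103 CPM in normoxia and 298 and 239.5 CPM in hypoxia. Me1 rose by 1.35 on the log2 scale (SE 0.24, edgeR adjusted p 0.00242). Iron importers fell: Tfrc (ENSMUSG00000022797), the transferrin receptor, had 478 and 253 CPM in normoxia and 37.3 and 39.8 CPM in hypoxia. Tfrc fell by 3.25 on the log2 scale (SE 0.31, edgeR adjusted p 1.48e-04). Slc11a2, the iron transporter DMT1, had 74.4 and 60.7 CPM in normoxia and 21.1 and 19.7 CPM in hypoxia. Slc11a2 fell by 1.73 on the log2 scale (SE 0.21, edgeR adjusted p 4.38e-04).

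Histone deacetylase genes, sirtuins included, had 4 members higher and 3 lower of 15, near the background shares of 17.2% and 20.2% (median -0.11, -0.20 to 0.18 when 1 library was left out). The median was 0.18 without normoxia library 2 and -0.20 without hypoxia library 1. Hdac7, a class IIa enzyme, rose from 2.09 and 0.835 CPM to 24.4 and 18.3 CPM. Hdac7 rose by 3.87 on the log2 scale (SE 0.41, edgeR adjusted p 2.22e-04). Sirt2, a cytosolic tubulin deacetylase, had 39.4 and 36.4 CPM in normoxia and 114 and 83.9 CPM in hypoxia. Sirt2 rose by 1.39 on the log2 scale (SE 0.23, edgeR adjusted p 0.00174). Sirt6, a chromatin deacetylase, had 17.5 and 17.2 CPM in normoxia and 32.3 and 39.6 CPM in hypoxia. Sirt6 rose by 1.05 on the log2 scale (SE 0.23, edgeR adjusted p 0.00584). The libraries of the 2 groups did not overlap in Hdac7, Sirt2 and Sirt6, as in 4979 of the 4980 called genes. Hdac10 had 39.8 and 27.3 CPM in normoxia and 13.7 and 16.1 CPM in hypoxia. Hdac10 fell by 1.17 on the log2 scale (SE 0.26, edgeR adjusted p 0.0063). Hdac2, a class I enzyme, had 47.8 and 73.1 CPM in normoxia and 31.2 and 37.6 CPM in hypoxia. Hdac2 fell by 0.81 on the log2 scale (SE 0.25, edgeR adjusted p 0.0281). It did not pass without normoxia library 2 or without hypoxia library 1 (edgeR adjusted p 0.176 and 0.145). Hdac9 had 16.2 and 28.5 CPM in normoxia and 22.6 and 18.8 CPM in hypoxia and overlapping libraries, with no call. The log2 difference for Hdac9 was -0.11 (SE 0.30, edgeR adjusted p 0.792).

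The same oxygen levels had been applied to BV2 monocultures without DMSO in another experiment, with no library in common. Across 12977 genes tested in both, the log2 fold changes had a Pearson correlation of 0.872 and a Spearman correlation of 0.852; genes are not independent replicates and no p is given. Of 4941 genes called with DMSO and tested in both, 92.7% were called in the same direction without it, and of 8542 called without DMSO 53.6% were called in the same direction with it; more genes were called without DMSO (61.9% of 14432 tested), where the common coefficient of variation between replicates was 0.0958 against 0.205 with DMSO. In 4578 of the 4582 genes called in both the direction was the same. Respiratory chain genes fell in 61 of 75 without DMSO (median -0.55) and in 12 with it (median -0.17), against backgrounds of 31% and 20.2%. Mitosis genes fell in 51 of 52 and glycolysis genes rose in 21 of 24 without DMSO, with medians of -1.66 and 1.40, near those with DMSO (-2.07 and 1.68). The stress response list rose in 35 of 42 without DMSO (median 1.70, and 0.77 with DMSO), against a background of 30.9%. Interferon-stimulated effectors fell in 24 of 61 and rose in 7 without DMSO, against backgrounds of 31% and 30.9%, with a median of -0.23 (-1.30 with DMSO and -0.48 with DMSO but without normoxia library 1). Nos2 rose by 8.60 without DMSO and 7.79 with it, Selenbp1 by 6.72 and 6.41, and Egln3 by 5.59 and 5.18 on the log2 scale.

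**Figure D4:**
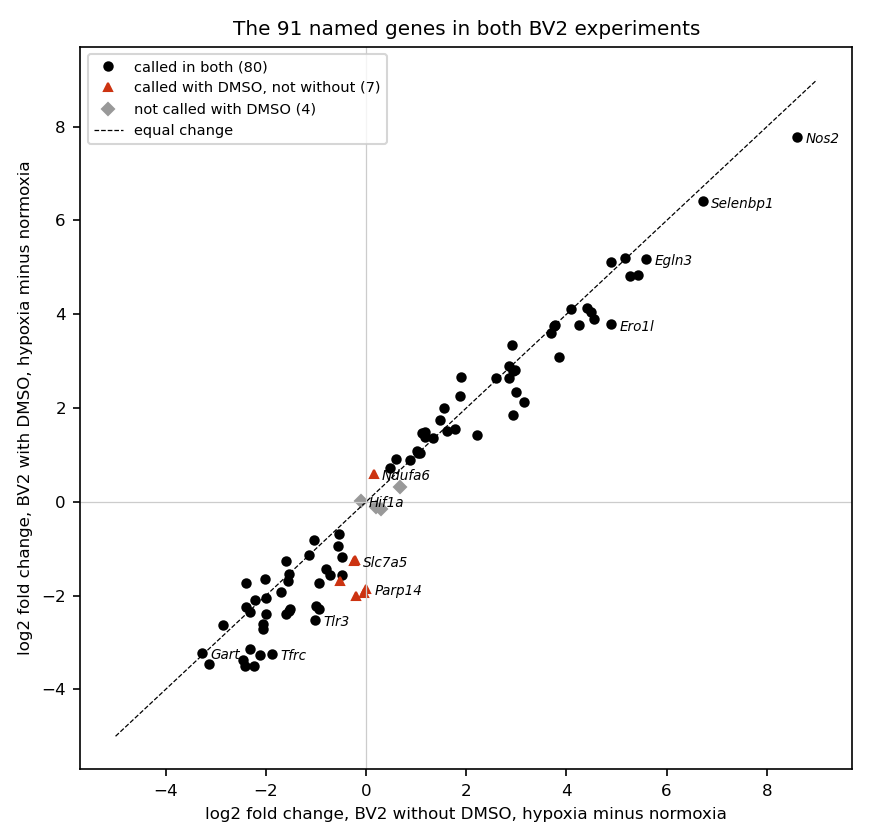
Log2 fold change (hypoxia minus normoxia) of the 91 named genes in BV2 cells without DMSO (x axis) and with DMSO (y axis); black circles, the 80 genes called in both; red triangles, the 7 called with DMSO and not without; grey diamonds, the 4 not called with DMSO; the dashed line marks equal change. Named genes were chosen mainly by their change with DMSO, and Nos2 and Selenbp1 lie at the upper end in both experiments while Parp14 lies near 0 on the x axis alone.

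When the difference between the hypoxia effects of these experiments was itself tested, none of 13570 genes passed (0%) by edgeR, with 1123 genes at an unadjusted p under 0.05 and a smallest adjusted p of 0.592. DESeq2 called 1 gene, Akr1b3, an aldose reductase, which had 166 and 265 CPM in normoxia and 495 and 487 CPM in hypoxia with DMSO, and 173 and 165 CPM in normoxia and 115 and 96.9 CPM in hypoxia without it (DESeq2 adjusted p 0.000321). Without normoxia library 2, edgeR called 127 genes, 5 of them with a higher and 122 with a lower effect with DMSO, and without a filter on low counts 125. DMSO, the table and the experiment cannot be told apart in this comparison.

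BMDM with DMSO, measured in the same table, gave 72 called genes of 14914 (0.483%), 70 higher (0.469%) and 2 lower (0.0134%), with a common coefficient of variation of 0.381. Tested directly, the hypoxia effect differed between BV2 cells and BMDM in 106 of 15955 genes (0.664%), 73 with a higher (0.458%) and 33 with a lower effect (0.207%) in BV2 cells, with 2974 genes at an unadjusted p under 0.05. With the replicate block the number was 1298, and it was 0 when any 1 of the 4 BV2 libraries was left out. Levels in this paragraph were scaled over the 12 libraries of the table. Ptpn14, a phosphatase that restrains YAP, had 3.19 and 1.74 CPM in normoxia and 43.8 and 29.8 CPM in hypoxia in BV2 cells. In BMDM Ptpn14 had 75.4 and 110.1 CPM in normoxia and 26.4 and 63.7 CPM in hypoxia (difference 4.95, SE 0.75, edgeR adjusted p 0.0256). Hdac7 had 1.98 and 0.773 CPM in normoxia and 23.5 and 17.3 CPM in hypoxia in BV2 cells. In BMDM Hdac7 had 88.3 and 98.6 CPM in normoxia and 69.3 and 129 CPM in hypoxia (difference 3.81, SE 0.58, edgeR adjusted p 0.0256), the highest normoxic levels being those of BMDM. The lactate transporter gene Slc16a1 had 526 and 387 CPM in normoxia and 70.7 and 114 CPM in hypoxia in BV2 cells. In BMDM Slc16a1 had 26.8 and 22.6 CPM in normoxia and 55.1 and 41.2 CPM in hypoxia (difference -3.27, SE 0.48, edgeR adjusted p 0.0256). The co-stimulatory ligand gene Cd86 had 37.9 and 28.5 CPM in normoxia and 11.4 and 14.8 CPM in hypoxia in BV2 cells. In BMDM Cd86 had 9.86 and 4.93 CPM in normoxia and 66.9 and 39.0 CPM in hypoxia (difference -4.19, SE 0.60, edgeR adjusted p 0.0256). Stc2, a secreted glycoprotein of the stress response, had 65.1 and 36.7 CPM in normoxia and 40.1 and 50.5 CPM in hypoxia in BV2 cells. In BMDM Stc2 had 1.85 and 0.473 CPM in normoxia and 60.7 and 54.8 CPM in hypoxia (difference -5.82, SE 0.84, edgeR adjusted p 0.0256). Creld2, a chaperone of the endoplasmic reticulum, had 122 and 98.8 CPM in normoxia and 261 and 163 CPM in hypoxia in BV2 cells. In BMDM Creld2 had 67.0 and 71.2 CPM in normoxia and 2079 and 1011 CPM in hypoxia (difference -3.55, SE 0.56, edgeR adjusted p 0.031). The cell types also differ in serum and in being a line or primary cells, which cannot be told apart from cell type.

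Some of the named genes share sequence with others, which makes their counts less certain. Shares of 75-base words found in transcripts of another gene were 23.9% for Cycs, 18.9% for Ccnb1, 16.9% for Bnip3l, 16.6% for Odc1, 16.4% for Me1 and 11.4% for Bnip3, mostly with pseudogenes or predicted genes, and 13.2% for Ifi204, mainly with Ifi211. Exons overlapped a gene on the opposite strand over 57.2% of Fosl1 (Ccdc85b), 26.4% of Ankrd37 (Lrp2bp), 23.4% of Ccnd1, 22.4% of Riox2 (Crybg3), 22.2% of Bnip3 and 19.7% of Gart. Whether counting used the strand is not given in the sources used here, so reads of these gene pairs may not have been told apart.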

How the data were processed

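RNA was measured in 4 BV2 libraries with DMSO (2 in normoxia, 2 in hypoxia), and the fit added the 2 BV2 libraries with panobinostat. The authors deposited raw read counts per gene; per the submitters' processing notes Trimmomatic 0.36, STAR 2.6, SAMtools, HTSeq 0.9.1, deepTools and the mm10 build were used, and the annotation and strand setting are not given in the sources used here. Symbols matched 55141 of 55487 identifiers. Totals were 12848411 to 14356485 counts, 3 counts being 0.209 to 0.2335 CPM in the 4 libraries, unscaled, which covers counting error only. edgeR 4.0.16 (R 4.3.3) was run with filterByExpr (minimum count 10, total 15), TMM scaling, 1 mean per group, the quasi-likelihood test with 3 residual degrees of freedom and Benjamini-Hochberg adjustment over all 13294 tested genes, at 0.05. Printed CPM values are scaled by TMM; list medians by library are log2 CPM with a prior count of 2. Differences of effects were interaction terms in fits of 8 and 12 libraries. DESeq2 1.42.0, its size factors, other filters, the 2 groups alone, limma 3.58.1 and leaving out each library were alternatives.

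Replicates of a group differed by more than counting error (chi-square per degree of freedom 61.1 in normoxia and 39.0 in hypoxia), so none is a library deposited again. Libraries with the same number deviated together from their group means (correlations over genes 0.389, 0.154 and 0.364 over the 3 pairs of BV2 groups). With 2 libraries a group this check cannot establish that the numbers pair the libraries. The main fit has no block, and the replicate block is an alternative. Blocked counts stand in the text where they move a count by over 1.5 times or from 0.

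Named genes are the 8 largest rises and 8 largest falls above a mean log2 CPM of 4 whose groups do not overlap, up to 2 called members per list and direction above a mean log2 CPM of 3, a panel of immune and hypoxia genes, and 5 genes per direction for each difference of effects. The members, lists, panel and rules were chosen with earlier results of these data known. A list is described by counts and its median and was not tested as a set. Reference coordinates and transcripts are those of GENCODE M21 (GRCm38).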

Additional observations from a re-analysis of the deposited data

Results flagged for a closer look

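The hypoxia effect differed between BV2 cells and BMDM, both with DMSO, in 106 genes by the edgeR test of the difference between effects, which is why these results are given again here. Among named genes the effect was higher in BV2 cells on the log2 scale by 4.95 for Ptpn14, 3.99 for Zfp467, 3.98 for Grb10, 3.84 for Mpp2, 3.81 for Hdac7, 3.26 for Ppp1r3b, 2.63 for Rora and 2.25 for Ccng2. The difference (BV2 minus BMDM) was -5.82 for Stc2, -4.19 for Cd86, -3.55 for Creld2, -3.36 for Tspan13 and -3.27 for Slc16a1. No gene was called without any 1 of the 4 BV2 libraries. Groups of 2 libraries are too small for a test of outlying samples.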

How the results depend on the processing

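In BV2 cells with DMSO the count of called genes was within 1.5 times 4980 under DESeq2 (4966), its size factors within edgeR (4995), no filter (5397), a mean CPM of at least 5 (4389), the replicate block (6511) and the 2 groups alone (4038); leaving out 1 library gave 2920 to 4758 genes, 1405 to 2293 higher and 1515 to 2519 lower. None of the 4980 genes changed sign under any of these alternatives that gave it a value. For the difference from untreated BV2 cells edgeR called 0 genes; DESeq2 called 1 (1 higher), no filter gave 125 (10 higher, 115 lower), and leaving out 1 library gave 0 to 127 (0 to 5 higher, 0 to 122 lower). For the difference from BMDM the 106 genes (73 higher, 33 lower) became 1176 with DESeq2 (635 higher, 541 lower), 1372 without a filter (889 higher, 483 lower), 247 with a mean CPM minimum of 5 (142 higher, 105 lower), 1298 with the replicate block (735 higher, 563 lower) and 0 to 0 when 1 BV2 library was left out (0 higher, 0 lower). The cause of these shifts was not tested.

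Of 91 named genes, 80 kept their direction and call without normoxia library 1, 86 without normoxia library 2, 80 without hypoxia library 1, 84 without hypoxia library 2, 87 with the 2 groups alone, 88 with DESeq2, 90 without a filter and 91 with other size factors. With the replicate block all 91 kept theirs, and beyond the counts given beside the results it changed no other call of a named gene. When 1 library was left out, 4 uncalled genes changed sign: log2 fold changes ranged from -0.0654 to 0.0944 for Hif1a, -0.42 to 0.23 for H2-K1, -0.28 to 0.87 for Cd274 and -0.44 to 0.38 for Hdac9. By DESeq2 3 named genes were not called (adjusted p 0.0507 for Cxcl10, 0.0945 for Oas2 and 0.0909 for P2ry12). Where an arm was left with 1 library, that library was assumed to vary like the other groups. With 2 libraries a group, genes such as Ifit1, Cxcl10 and P2ry12 were low in hypoxia (a few CPM or less). In normoxia, library 1 was above library 2 in each of these genes. Without normoxia library 1 the log2 fold change was -0.62 for Ifit1 and -1.01 for Cxcl10, against -2.29 and -1.94 in the full fit. How far counting error or the difference between libraries limits these genes was not tested.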
